A study of Mus musculus with 10 samples.

Results

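The 5 androgenetic haploid embryonic stem cell (AG-haESC) lines of the study were compared with each other, gene by gene, by how widely the signal of each gene spread over the lines. Of 34945 probe sets that pair with exactly 1 gene symbol, 17351 (49.7%) had a signal above their array's median in all 5 lines, and they represent 10181 of 18193 genes. A gene was read from its brightest such probe set, and its spread is the standard deviation (SD) over the 5 lines of the log2 signal, where 1 log2 unit is a 2-fold difference. Each line was measured on 1 array, so an SD holds differences between lines together with those of culture, sort and array, and no line has an error of its own.

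AG-haESC are derived from blastocysts whose genome comes from sperm alone, and the lines were of C57BL/6J background. Lines AGH-OG-1, AGH-OG-2, AGH-OG-3 and AGH-OG-4 carried an Oct4-EGFP transgene and were at passages 14, 15, 12 and 14. The only line with an Actin-EGFP transgene, AGH-EG-1, was at passage 15. An Oct4-EGFP transgene reports the pluripotent state through the regulatory sequence of Pou5f1, while an Actin promoter drives EGFP in most cell types. All haploid lines grew on feeder cells in medium with CHIR99021, an inhibitor of the kinase GSK3, and PD0325901, an inhibitor of the ERK-activating kinase MEK. The cells were sorted on the 1n peak after Hoechst 33342 at 15 µg/ml, which per the labels takes cells of the G1/G0 stage. The other 5 arrays were of sorted 2n cells and serve here for scale only. They are 3 arrays of E14, diploid embryonic stem cells of 1 male line (129/Sv, wild type, passage 17), and 2 of mouse embryonic fibroblasts (MEF) of B6D2F1 background from male embryos at passage 2. The medium of E14 and MEF was not given in the sources used here. Values of the 5 haploid lines are given throughout in the order AGH-OG-1, AGH-OG-2, AGH-EG-1, AGH-OG-3 and AGH-OG-4.

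Haploid embryonic stem cells keep 1 set of chromosomes and the self-renewal of diploid stem cells, but a share of them returns to the diploid state with each passage, so that lines are kept haploid by repeated sorting. Independent lines start from different embryos and pass through their own history of culture. p53, the transcription factor that answers DNA damage and mitotic errors, the hypoxia-inducible factors, which act when oxygen is scarce, and the interferon system, which answers foreign nucleic acid, each drive a well-known set of target genes.

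All 10 stem cell markers, among them Pou5f1, Nanog and Esrrb, lay above the array median in every haploid line. The median SD of a gene over the lines was 0.24 log2 units, with quartiles of 0.16 and 0.36. An SD of at least 1 was found in 50 of 10181 genes (0.491%), and an SD below 0.15 in 2123 (20.9%). The smallest SD was 0.018 and the largest 1.80. The spread was smaller in brighter genes, from a median SD of 0.33 in the dimmest quartile of the genes to 0.17 in the brightest. In the E14 arrays, all of the same line, the median SD of these genes was 0.27, but it was 0.099 between E14 replicates 1 and 2, since E14 replicate 3 stood apart. Probe sets just above the cut, those of Htt, Mpped2 and 4930558J18Rik, had SDs of 0.76, 0.62 and 0.16, and those just below it, of Oxsm, Adcy1 and Tns3, had SDs of 0.36, 0.38 and 0.36.

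The line that stood farthest from the rest was AGH-OG-3. Between it and any other haploid line, 603 to 671 genes differed at least 2-fold. The most similar lines were AGH-OG-2 and AGH-EG-1, both at passage 15 and with different transgenes, in which 129 genes differed at least 2-fold. AGH-EG-1 and AGH-OG-4 differed at least 2-fold in 661 genes. A principal component analysis placed AGH-OG-3 at 35.7 on the first component, which held 42.1% of the variance, against -15.5 to 3.70 for the others. The second component held 32.5% and set AGH-OG-4, at 26.3, against AGH-EG-1, at -21.9. Of the 50 genes with an SD of at least 1, the widest gap between neighbouring values put AGH-OG-3 alone at the low end in 22 and AGH-EG-1 alone at the low end in 7. AGH-OG-3 and AGH-OG-4 were together at the low end in 6, and the other 15 genes split in other ways. The 48 gene lists held 22 of the 50 genes.

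Beside the median SD of 0.24 of all member genes, the lists that varied most were the Pramel genes (0.78), the hypoxia targets (0.72), the p53 targets (0.70), the interferon response genes (0.67) and the fibroblast markers (0.65), as the plot of spread by list shows. Over the 3 E14 arrays, of 1 line, the median SDs of these lists were 0.48, 0.86, 0.41, 0.38 and 0.81. Within each list, members moved between lines in a shared order to different degrees. The mean Pearson correlation between pairs of members over the 5 lines was 0.68 for hypoxia targets, 0.65 for glycolysis, 0.61 for X-linked Rhox and cancer-testis genes, 0.49 for p53 targets, 0.46 for interferon response and 0.43 for fibroblast markers. For paternally expressed and maternally expressed imprinted genes it was 0.004 and -0.042. These correlations rest on 5 arrays that every gene shares, and they are descriptions. A list value in a line is the median over its members of the log2 signal minus the member's mean over the 5 lines.

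The lists of interferon, hypoxia and p53 targets hold genes known to respond to these factors, and their promoters are shown for the motifs by which the factors bind. The 250 bases before the start were taken from RefSeq (GRCm38.p6) for 27025 genes, at every start listed for a gene, and searched on both strands. The interferon-stimulated response element, which STAT and IRF factors bind, was searched as GAAANNGAAA and was found in 13 of 33 interferon response genes with an entry (39.4%), against 3.46% of all genes. In the lines below, the capitals mark this element or its overlapping copies. Irgm1, Bst2 and Oas1a are among the most variable genes of the list, and Ifitm2, which also holds the element, is its most constant member. The windows are chr11:48871421-48871480, chr8:71537562-71537621, chr5:120907526-120907585 and chr7:140955973-140956032, each read on the minus strand from 5′ to 3′.
Irgm1: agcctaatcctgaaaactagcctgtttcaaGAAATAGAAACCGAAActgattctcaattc
Bst2: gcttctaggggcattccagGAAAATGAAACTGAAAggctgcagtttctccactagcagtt
Oas1a: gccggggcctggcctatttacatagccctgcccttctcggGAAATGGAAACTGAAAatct
Ifitm2: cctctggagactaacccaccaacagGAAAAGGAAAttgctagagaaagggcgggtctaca

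The core of the hypoxia response element, to which the hypoxia-inducible factors bind, was searched as ACGTG. It was found in 17 of 25 hypoxia targets with an entry (68.0%) and in 18.5% of all genes. The capitals mark it below, in CACGTG of Bnip3 on both strands at once. Egln3, P4ha2 and Bnip3 varied widely over the lines, and Mxi1 had an SD of 0.24, that of the median gene. A further member probe set of Mxi1 had an SD of 0.41 and a correlation of 0.082 with the first. The windows are chr12:54204065-54204124 (minus strand), chr11:54100818-54100877 (plus), chr7:138909582-138909641 (minus) and chr19:53329319-53329378 (plus).
Egln3: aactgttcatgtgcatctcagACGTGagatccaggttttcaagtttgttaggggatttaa
P4ha2: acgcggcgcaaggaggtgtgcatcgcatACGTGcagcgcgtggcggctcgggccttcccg
Bnip3: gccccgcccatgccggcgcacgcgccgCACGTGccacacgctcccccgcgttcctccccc
Mxi1: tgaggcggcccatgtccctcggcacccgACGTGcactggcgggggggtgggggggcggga

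The 10-base p53 decamer, a pair of which forms a p53 response element, was found in 8 of 27 p53 targets with an entry (29.6%) and in 8.20% of all genes. The capitals mark it below in the windows of Ccng1 and Cdkn1a, which varied widely over the lines, and of Sesn1, the most constant member of the list by its brightest probe set. The windows are chr11:40755437-40755496 (minus strand), chr17:29090903-29090962 (plus) and chr10:41887241-41887300 (plus).
Ccng1: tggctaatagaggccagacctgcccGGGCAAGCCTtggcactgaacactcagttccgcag
Cdkn1a: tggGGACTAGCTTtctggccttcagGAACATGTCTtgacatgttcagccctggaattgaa
Sesn1: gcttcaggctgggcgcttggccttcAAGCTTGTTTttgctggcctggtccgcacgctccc
The median SD of members with and without the motif was 0.53 and 0.64 for the interferon list, 0.83 and 0.46 for the hypoxia list and 0.60 and 0.61 for the p53 list. A match describes these letters only, and binding was not measured.

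p53 targets were lower in AGH-OG-3 than in any other haploid line and highest in AGH-OG-4. Of 33 listed targets with a probe set, 32 were members, and 7 had an SD of at least 1. AGH-OG-3 was the lowest of the 5 lines for 24 of the 32, where it was the lowest for 26.0% of all genes. In 18 of the 32 it lay at least 1 log2 unit below the median of the other lines, against 3.14% of all genes. The list value was 0.37, 0.10, -0.13, -0.92 and 0.67, and that of AGH-OG-4 was 0.37 when AGH-OG-3 was left out. AGH-OG-4 was the highest line for 20 targets (25.5% of all genes). It was at least 1 log2 unit above the median of the others for 8 (151 of all 10181 genes). Fold differences of a line given below are likewise against the median of the other lines.

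Eda2r, an X-linked receptor of the tumour necrosis factor family that p53 induces, had log2 signals of 10.15, 9.62, 10.12, 6.03 and 10.17, and an SD of 1.80. AGH-OG-3 alone was low, 17.2-fold below the median of the other lines, and E14 lay at 9.51 to 10.03 and MEF at 10.003 to 10.25. The value in AGH-OG-3 lay just above its array median of 5.98, so the size of this fold is uncertain. Ccng1, which encodes cyclin G1, read 13.26, 13.08, 12.91, 9.96 and 13.39, so AGH-OG-3 was 9.26-fold lower. Both further probe sets of Ccng1 were also lowest in AGH-OG-3 and highest in AGH-OG-4, with SDs of 1.21 and 1.24 and correlations of at least 0.996 with the first.

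The kinase gene Plk2 gave 10.74, 10.21, 9.83, 7.67 and 11.23. Phlda3, an inhibitor of the survival kinase Akt, gave 11.08, 10.86, 10.80, 8.49 and 11.49. In both genes AGH-OG-3 was the lowest line, 6.99-fold and 5.56-fold below the median of the others. Psrc1, a regulator of spindle microtubules, gave 12.14, 11.96, 11.79, 9.65 and 12.29, and Dcxr, a sugar reductase, 9.64, 9.005, 8.79, 7.31 and 10.51. AGH-OG-3 was again the lowest line for both, and AGH-OG-4 the highest.

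Cdkn1a, the cyclin-dependent kinase inhibitor p21 that halts the cycle in G1, gave 11.69, 11.63, 11.03, 9.94 and 12.54. It was 3.28-fold lower in AGH-OG-3 and 2.32-fold higher in AGH-OG-4 than the median of the other lines. Mdm2, the ubiquitin ligase that degrades p53 and is its target, gave 11.95, 11.74, 11.14, 10.35 and 12.44, the same order of lines. Among targets that act in cell death, the BH3-only gene Pmaip1 gave 12.20, 11.87, 11.20, 10.58 and 12.77 and Perp, a desmosomal membrane protein, 10.77, 10.14, 9.81, 8.86 and 11.19. The RNA-binding Zmat3, the antiproliferative Btg2 and the autophagy regulator Trp53inp1 were 3.16-fold, 3.04-fold and 4.09-fold lower in AGH-OG-3.

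Not all targets followed. Sesn1, a stress-induced regulator of the kinase mTORC1, varied between 10.38 and 10.55, with an SD of 0.072 and SDs of 0.24 to 0.40 in further probe sets. Tnfrsf10b, a death receptor, Tigar, a regulator of glycolysis, and Rrm2b, a ribonucleotide reductase subunit, had SDs of 0.21 to 0.22, and the further probe sets of Rrm2b had SDs of 0.42 to 0.59. Gadd45g and Gadd45b, which code for stress sensors that other pathways induce as well, were highest in AGH-OG-3, at 10.36 and 12.94. Ddit4, which the hypoxia list also holds, followed the hypoxia targets instead. Among genes with an SD of at least 1, those most like Eda2r over the 5 lines were Ak1, Pid1, Ccng1, Psrc1 and Phlda3, with correlations of 0.98 to 0.99. Pid1, which encodes an adaptor of insulin receptor signalling, gave 9.64, 9.71, 9.76, 6.81 and 9.72, and the adenylate kinase gene Ak1 gave 10.98, 10.90, 10.80, 8.60 and 11.02. Zfp365, a zinc finger gene that falls outside the members because it dropped below the array median in AGH-OG-3, read 9.86, 9.37, 8.60, 4.98 and 9.88.

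**Figure D1:**
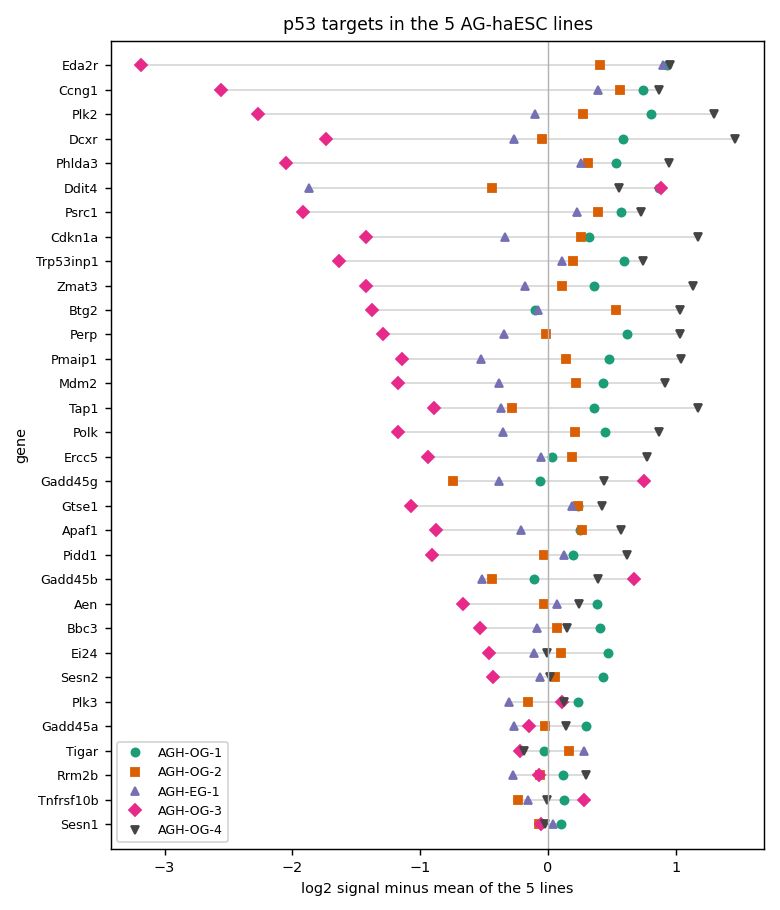
Log2 signal of each of the 32 p53 targets in each AG-haESC line, minus the gene's mean over the 5 lines, with genes ordered by SD and 1 symbol shape per line. AGH-OG-3 (diamonds) is the lowest line for 24 of the 32 genes, and AGH-OG-4 (downward triangles) is the highest for 20.

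Hypoxia targets were lowest in AGH-EG-1. Of 27 listed targets with a probe set, 26 were members, and 4 had an SD of at least 1. AGH-EG-1 was the lowest line for 23 of the 26, against 25.5% of all genes. It lay at least 1 log2 unit below the median of the others for 16, against 1.26% of all genes. The list value was 0.092, -0.21, -0.93, 0.45 and 0.63. AGH-OG-4 was the highest line for 15 targets (25.5% of all genes) and AGH-OG-3 for 9 (25.9% of all genes).

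Ndrg1, a stress-responsive gene strongly induced in hypoxia, had log2 signals of 10.83, 10.13, 8.58, 12.14 and 11.70. AGH-EG-1 was 6.43-fold below the median of the other lines, and AGH-OG-3 and AGH-OG-4 were the highest. The 4 further probe sets of Ndrg1 had SDs of 1.18 to 1.47. Egln3, an oxygen-sensing prolyl hydroxylase, read 10.14, 9.17, 7.33, 10.24 and 10.50, which put AGH-EG-1 7.25-fold lower. The vasodilator peptide gene Adm gave 7.77, 7.12, 5.95, 8.53 and 8.99, with AGH-EG-1 again the lowest.

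Ddit4, an inhibitor of mTORC1, gave 12.90, 11.59, 10.16, 12.92 and 12.58. Bnip3, a mitophagy receptor, gave 12.68, 12.33, 11.03, 13.57 and 13.27, and P4ha2, a collagen prolyl hydroxylase, 7.83, 7.68, 6.87, 8.95 and 9.32. AGH-EG-1 was the lowest of the 5 lines in all 3 genes, and AGH-OG-2 the next lowest. Vegfa, the vascular growth factor, spread less, at 10.06, 9.56, 8.78, 9.35 and 10.71. Kdm3a, a histone demethylase, and Slc2a3, a glucose transporter, had SDs of 0.076 and 0.19, although further probe sets of Slc2a3 reached 0.53. Bhlhe40, a transcriptional repressor outside the list, was among the genes most like Ndrg1 over the lines, with a correlation of 0.98, and gave 11.12, 10.07, 8.90, 11.60 and 11.48.

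Genes of glycolysis and glucose transport had a smaller spread with the same lowest line and a median SD of 0.38. AGH-EG-1 was the lowest line for 18 of 21 members (25.5% of all genes). It was at least 1 log2 unit below the median of the others for 7 (1.26% of all genes). The aldolase gene Aldoc gave 9.01, 9.50, 7.44, 10.74 and 10.32, and Tpi1, triosephosphate isomerase, 13.35, 13.02, 12.07, 14.09 and 13.86. AGH-EG-1 was thus 5.54-fold lower for Aldoc and 2.90-fold lower for Tpi1. For Ldha, lactate dehydrogenase A, and the main glucose transporter gene Slc2a1 it was 2.13-fold and 1.93-fold lower, and for Pgk1, phosphoglycerate kinase, 1.42-fold. A comparable spread was present among E14 arrays of 1 line. Ndrg1 read 11.53, 11.54 and 7.60 in E14 replicates 1, 2 and 3, and the median SD of the hypoxia targets over E14 was 0.86. The oxygen supply and density of the cultures were not given in the sources used here, and their part in the result was not tested.

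Interferon response genes were lower in AGH-OG-3 and AGH-OG-4 than in the other lines. Only 23 of 45 listed genes with a probe set lay above the median in all 5 lines, and 5 of the 23 had an SD of at least 1. The list value was 0.22, 0.40, 0.54, -0.67 and -0.30, and that of AGH-EG-1 was 0.32 when AGH-OG-3 was left out. AGH-OG-3 was at least 1 log2 unit below the median of the others for 10 of the 23 (3.14% of all genes). For AGH-OG-4 this held for 8 (0.491% of all genes). AGH-EG-1 was the highest line for 11 (16.6% of all genes) and at least 1 log2 unit above the median of the others for 6 (0.521% of all genes).

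Irgm1, an interferon-induced GTPase of cell-autonomous defence, had log2 signals of 10.03, 10.37, 11.10, 7.17 and 7.40 and the largest SD of all members, 1.80. AGH-OG-3 and AGH-OG-4 were low and close to each other, and the other lines were at least 2.6 log2 units higher. Bst2, or tetherin, which holds budding virus particles at the cell surface, gave 12.46, 11.65, 11.50, 8.50 and 9.21. Oas1a, a sensor that makes oligoadenylates from double-stranded RNA, gave 11.80, 11.89, 12.53, 10.35 and 9.35. In both genes AGH-OG-3 and AGH-OG-4 were again the low lines, in opposite order.

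Xaf1, an antagonist of the apoptosis inhibitor XIAP, gave 11.85, 12.12, 12.11, 9.12 and 10.67, so that AGH-OG-3 was the lowest line. Rsad2, or viperin, gave 8.06, 8.29, 9.70, 7.21 and 6.41, with AGH-EG-1 4.18-fold above the median of the others. Ifi27, Nmi and Lgals9, which interferon also induces and the list does not hold, split the lines the same way. Nmi read 9.41, 9.90, 10.35, 7.74 and 7.96. The list also held genes whose SD, by their brightest probe set, lay below the median of 0.24 of all genes. Ifitm2, a membrane protein that blocks virus entry, ranged from 12.07 to 12.45, the ubiquitin ligase gene Trim25 from 12.12 to 12.51, and the signalling genes Stat2 and Irf1 had SDs of 0.19 and 0.21. Further probe sets of Trim25, however, had SDs of 0.24 and 0.97, with correlations of 0.82 to 0.85 with the first.

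Among listed genes below the array median in some line, Irf7, the main amplifier of interferon production, gave 7.45, 7.95, 8.57, 5.96 and 5.68. Usp18, which removes the ubiquitin-like ISG15, gave 10.07, 10.20, 11.21, 6.46 and 5.39, and the chaperone gene Rtp4 10.31, 10.31, 10.83, 7.24 and 5.91. These non-members were low in the same lines, but they failed the rule because they were low there and add nothing to the count. E14 arrays read 6.24 to 8.58 for Irgm1 and 9.04 to 9.47 for Bst2, and MEF arrays 9.51 to 9.88 and 9.67 to 9.71. Bst2 was thus brighter in AGH-OG-1, AGH-OG-2 and AGH-EG-1 than in either MEF array. Of 8 macrophage markers, Ptprc, Tyrobp, Fcer1g and Lyz2 were below the array median in every haploid line. Cd68, Csf1r and Cd14 were above it in every haploid line, and Adgre1 in AGH-EG-1 only.

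**Figure D2:**
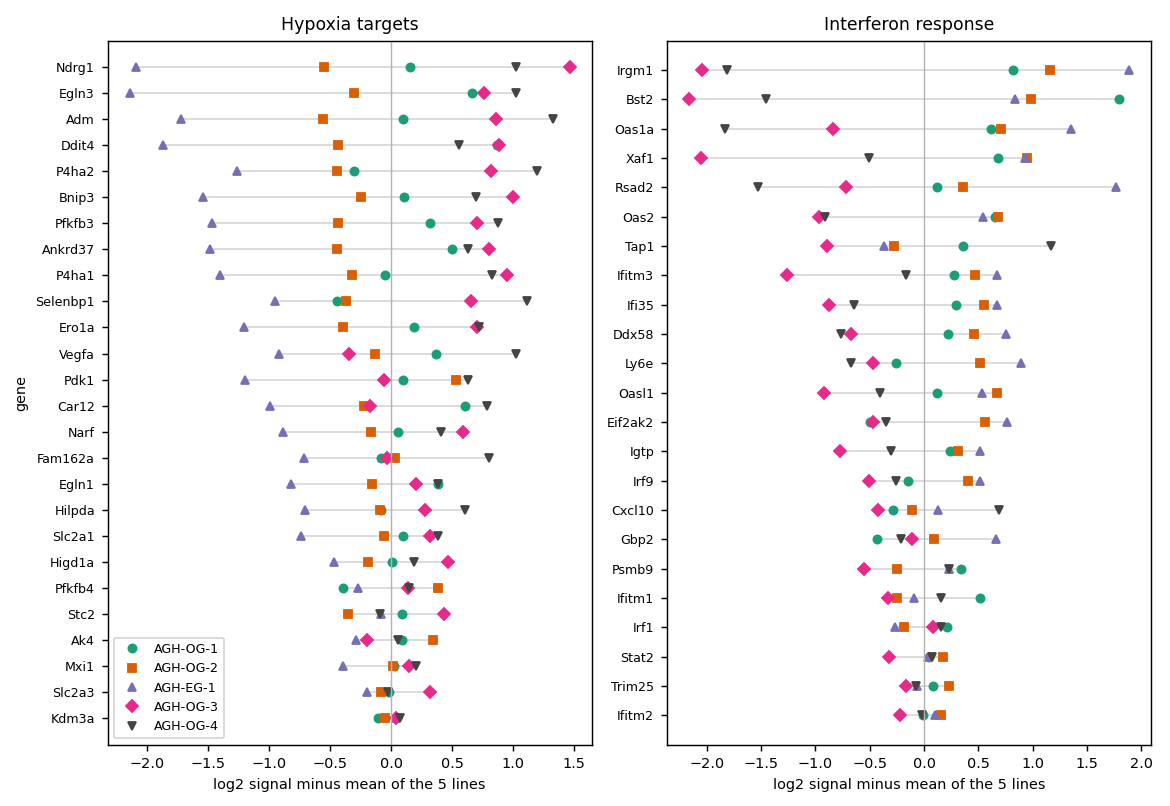
Log2 signal of 26 hypoxia targets (left) and 23 interferon response genes (right) in each AG-haESC line, minus the gene's mean over the 5 lines, with genes ordered by SD. AGH-EG-1 (upward triangles) is the lowest line for 23 hypoxia targets, and AGH-OG-3 (diamonds) is the lowest line for 16 interferon response genes (26.0% of all genes).

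Fibroblast genes varied together in yet another order of lines. In bulk RNA, fewer cells of a type and less RNA per cell cannot be told apart. Of 42 listed markers with a probe set, 36 were members, with a median SD of 0.65, and the list value was -0.60, 0.77, 0.20, -0.47 and 0.20. That of AGH-OG-1 was -0.35 when AGH-OG-2 was left out. AGH-OG-2 was the highest line for 24 of the 36 (13.3% of all genes). It was at least 1 log2 unit above the median of the others for 18 (0.619% of all genes). AGH-OG-1 lay at least 1 log2 unit below the median of the others for 12 (0.727% of all genes). For AGH-OG-3 this held for 11 (3.14% of all genes).

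Col1a1, the collagen I chain, had log2 signals of 6.96, 9.10, 8.33, 7.04 and 8.55, against 13.60 and 13.63 in MEF and 2.87 to 5.96 in E14. Postn, a secreted matrix protein of fibroblasts, gave 6.38, 8.80, 8.10, 7.33 and 7.80, and Acta2, smooth muscle actin, 9.94, 12.17, 11.35, 10.42 and 10.75. AGH-OG-2 was the highest and AGH-OG-1 the lowest haploid line for all 3 genes. Timp3, a protease inhibitor of the matrix, was the list's most variable gene at 6.70, 8.93, 8.03, 6.54 and 8.53. Other genes of the list stayed level. Sparc, Vim and Timp1 had SDs of 0.18 to 0.23 and lay at 11.59 or above in every haploid line. Outside the list, the serine protease gene Prss23 gave 7.48, 9.85, 8.84, 6.62 and 8.21 and the chemokine gene Ccl2 6.15, 8.68, 8.44, 6.32 and 7.08, and both reached at least 10.85 in MEF.

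Summed over 15 fibroblast markers chosen for feeder cells, the linear signal of a haploid line was 7.90%, 11.1%, 8.23%, 7.34% and 10.8% of the MEF mean, and that of the E14 arrays 1.40% to 2.66%. Sparc alone made up most of the sum in every haploid line and E14 array. Its log2 signals were 13.08 to 13.70 in the haploid lines and 10.38 to 11.36 in E14, so the sums mainly follow that gene. Of these 15 markers, 11 to 13 lay above the array median in each haploid line and 5 to 7 in each E14 array, while Fap, a surface protease of activated fibroblasts, lay below it in all of them. The haploid cultures were grown on feeder cells, and the sort took the 1n peak. The part of feeder RNA in the fibroblast values was not tested.

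**Figure D3:**
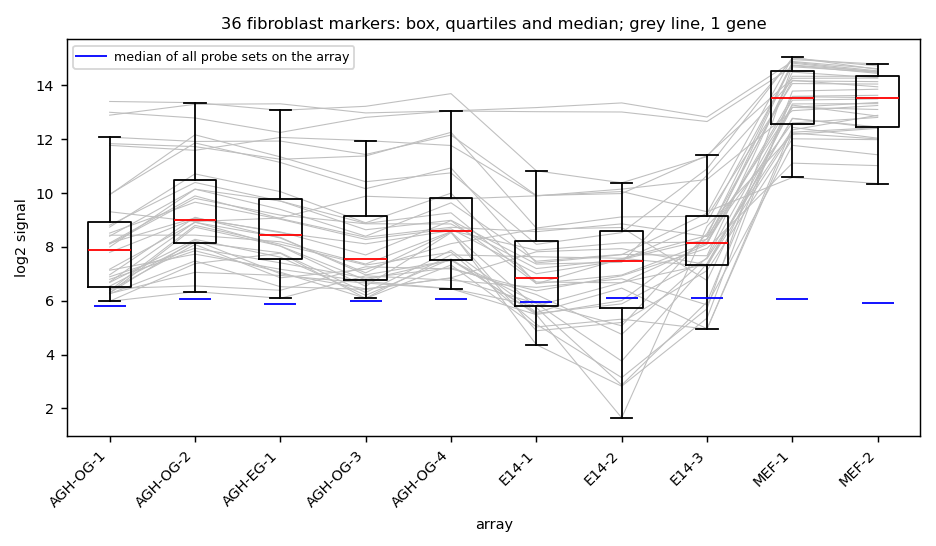
Log2 signal of the 36 fibroblast marker genes on all 10 arrays, with 1 grey line per gene, boxes at the quartiles, the median in red, whiskers to the farthest value within 1.5 box lengths, and the median of all probe sets on the array in blue. Among haploid lines the box of AGH-OG-2 is the highest and those of AGH-OG-1 and AGH-OG-3 are the lowest, and all lie far below the MEF arrays.

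Genes of the germline and early embryo distinguished AGH-OG-3 as well. Of 28 germline members, AGH-OG-3 was the highest line for 18 (25.9% of all genes). It lay at least 1 log2 unit above the median of the others for 12, against 1.57% of all genes, and its list value was 0.59. The median SD of the list was 0.49, but it was 1.25 over the 3 E14 arrays of 1 line. Between E14 replicates 1 and 2 it was 0.098. Asz1, a component of the piRNA pathway that silences transposons, gave 8.65, 8.58, 9.70, 10.71 and 9.24. Brdt, a testis bromodomain protein, gave 6.78, 6.56, 6.61, 8.49 and 6.67, and Taf7l, a germ cell TFIID subunit, 9.64, 9.55, 10.08, 11.27 and 10.87. AGH-OG-3 was the highest line for each of them. Dazl and Tex19.1, also germline genes, had SDs of 0.26 and 0.19, below the list median of 0.49, but a further member probe set of Dazl reached 0.46. Rec8, a meiotic cohesin subunit, was instead 4.02-fold higher in AGH-OG-4.

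The Rhox homeobox cluster and the cancer-testis genes of the X chromosome had list values of -0.082, -0.59, 0.23, 0.63 and -0.060. That of AGH-OG-2 was -0.38 when AGH-OG-3 was left out, and AGH-OG-3 was the highest line for 10 of 13 members (25.9% of all genes). The median SD of the list was 0.47, but it was 1.07 over the E14 arrays. X-linked genes as a whole had the same order of lines, over a smaller range. Magea6, a melanoma antigen family gene, gave 8.62, 8.40, 10.25, 10.74 and 8.30, and Nxf2, a germ cell RNA export factor, 7.16, 7.28, 8.77, 9.70 and 7.86. AGH-EG-1 and AGH-OG-3 were the high lines for both. Members of the Magea family are near-identical, and probe sets may read several of them. Rhox6 and Rhox9, placental and germline homeobox genes, gave 11.69, 11.14, 11.48, 11.97 and 12.38, and 11.22, 10.24, 10.76, 11.51 and 11.83, with AGH-OG-4 highest and AGH-OG-2 lowest. Rhox5 and Mageb16 were steady, with SDs of 0.17 and 0.14.

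The Pramel genes had only 4 members of 12 with a probe set. Pramel7, a gene of the early embryo that supports the naive ground state, gave 8.52, 9.67, 9.81, 6.41 and 8.40. Pramel6 gave 9.57, 10.19, 10.67, 7.85 and 9.03. Both were highest in AGH-EG-1 and AGH-OG-2 and lowest in AGH-OG-3, and the E14 arrays read at most 4.96 for either gene. A further member probe set of Pramel7 had an SD of only 0.55. Pramel12 and Pramel13, with SDs of 0.47 and 0.48, varied less than the brightest probe sets of Pramel7 and Pramel6. The family is made of close copies, so that their signals are uncertain. In the list of 2-cell stage genes, which holds the same 4 genes, AGH-OG-3 was the lowest line for 7 of 9 members (26.0% of all genes).

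Pluripotency factors spread about as much as genes in general. The list of 29 members had a median SD of 0.26, against 0.24 for all genes and 0.17 for the brightest quartile, and none of its genes had an SD of at least 1 (0.491% of all genes). Nanog gave 14.08, 14.06, 14.22, 14.17 and 14.07, Tdgf1, the Nodal co-receptor, ranged from 13.94 to 14.15, and Pou5f1 from 13.35 in AGH-OG-4 to 13.63. Sox2 and Esrrb had SDs of 0.20 and 0.18. Zfp42, or Rex1, a marker of the naive state, varied more, at 11.42, 11.70, 12.11, 10.90 and 11.56. AGH-OG-3 was the lowest line for 15 of the 29 members (26.0% of all genes), with a list value of -0.26. Klf4, a naive-state factor downstream of LIF, gave 13.22, 13.46, 13.01, 12.12 and 13.17, and Tbx3 gave 10.99, 11.27, 10.86, 9.58 and 10.65. Both were low in AGH-OG-3 alone, 2.11-fold and 2.55-fold. Lin28a, an inhibitor of let-7 maturation and the most variable factor with an SD of 0.81, read 9.09, 10.58, 10.39, 9.82 and 8.71. Dppa3, a maternal factor that guards against demethylation in the zygote, was highest in AGH-OG-3, at 13.28 against 11.66 to 12.40 in the other lines.

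Trophectoderm and keratin genes were highest in AGH-OG-4, with a list value of 0.50, which was 0.26 with no filter on low values. That line was the highest for 11 of 19 members (25.5% of all genes). It was at least 1 log2 unit above the median of the others for 7 (151 of all 10181 genes). The median SD of the list was 0.42, but it was 0.64 over the E14 arrays. The simple epithelial keratin gene Krt8 gave 8.83, 9.07, 9.15, 9.37 and 10.54, and its partner Krt18 9.88, 10.12, 10.06, 10.91 and 11.44. AGH-OG-4 was 2.71-fold and 2.55-fold above the median of the other lines. Gata3, a trophectoderm transcription factor, gave 7.84, 7.47, 7.48, 6.56 and 8.63. Among 8 trophectoderm markers, Cdx2 and Elf5 lay below the array median in every haploid line, and Hand1 in AGH-EG-1. Eomes, Tfap2c, Gata3, Krt8 and Krt18 lay above it in every haploid line. The summed signal of the 8 trophectoderm markers was 6180, 4238, 4354, 4903 and 9095 on the linear scale, and the part of differentiated cells in these values was not tested.

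Parentally imprinted genes showed no shared order of lines. The 16 paternally expressed members had a median SD of 0.32 and the 18 maternally expressed members 0.42. Igf2, the paternally expressed growth factor, was the most variable of the former at 8.48, 9.77, 9.20, 8.31 and 8.27. Among ERK-induced genes, Spry2, a feedback inhibitor of receptor signalling, gave 9.43, 10.65, 10.27, 9.35 and 9.21, and the phosphatase gene Dusp6 7.99, 9.19, 8.55, 7.69 and 7.62. Both were highest in AGH-OG-2 and next in AGH-EG-1. Ier3, an early-response gene of cell survival, had its lowest value in AGH-EG-1, at 9.67 against 10.85 to 12.01. Dnmt3a, a de novo DNA methyltransferase, ranged from 9.13 in AGH-OG-1 to 11.001 in AGH-OG-2 by its brightest probe set. Its 4 further member probe sets had SDs of 0.19 to 0.74 and correlations of 0.20 to 0.85 with that one.

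Genes of core cell machinery were the most constant. Of 74 subunits of oxidative phosphorylation, 46 had an SD below 0.15, against 20.9% of all genes, and the median SD was 0.13. The respiratory complex I subunit Ndufc2 gave 13.82, 13.85, 13.85, 13.91 and 13.86, whereas Ndufv3, of the same complex, had the largest SD of the list at 0.35. The medians of the chaperonin and prefoldin, splicing factor, proteasome, translation factor and mitochondrial ribosomal protein lists were 0.13, 0.15, 0.16, 0.16 and 0.16. Bright genes varied less in general, with a median SD of 0.17 in the brightest quartile of all genes.

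The cytosolic ribosomal proteins had a median SD of 0.16, and 37 of 48 were highest in AGH-OG-3 (25.9% of all genes). The list value there was 0.23 as deposited and 0.0048 after quantile normalization of the 5 arrays, so the shift depended on the scaling. Rpl11 ranged from 14.61 to 14.78 and Rps3 from 14.38 to 14.57. DNA replication genes had a median SD of 0.16 and list values of 0.024, 0.0005, 0.10, 0.087 and -0.22. Ccne1, cyclin E1, which drives entry into S phase, had the largest SD of this list, at 11.82, 12.15, 12.22, 11.87 and 10.07. It was 3.85-fold lower in AGH-OG-4, but its further probe set gave 11.42, 11.62, 11.69, 11.16 and 11.03, with an SD of 0.29.

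The smallest SD of all members, 0.018, was that of Pafah1b2, a subunit of a platelet-activating factor hydrolase, which gave 9.84, 9.88, 9.86, 9.88 and 9.84. Next came the ubiquitin ligase gene Stub1, from 11.90 to 11.95, Ggnbp2, from 11.08 to 11.14, and Rhoa, the small GTPase of the cytoskeleton, from 13.33 to 13.39. Srp14, of the signal recognition particle, the innate immune kinase gene Tbk1, the ferritin receptor gene Ncoa4 and the histone-binding Rbbp7 were also among the 15 genes with the smallest SD. These SDs are of the brightest probe set, and further probe sets had SDs of 0.12 to 0.18 for Pafah1b2, 0.18 for Stub1 and 0.40 to 0.51 for Ggnbp2. Rhoa lay at 12.90 to 13.04 in E14 and at 13.40 in both MEF arrays.

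Some genes split the lines widely with no list to place them. Wdfy1, an endosomal adaptor of innate immune receptors, gave 7.02, 6.90, 9.73, 7.52 and 7.61. AGH-EG-1 was thus 5.52-fold above the median of the other lines and near the E14 arrays at 9.69 to 10.89. Both further member probe sets varied too, with SDs of 1.00 and 1.52. Cul5, a cullin scaffold of ubiquitin ligases, was low in AGH-OG-1 at 8.08, against 10.33 to 10.96 in the other lines. Its further probe sets disagreed with each other, with SDs of 0.19 and 0.92 and correlations with the first from -0.20 to 0.97. Sptan1, the alpha spectrin of the membrane skeleton, gave 11.68, 9.73, 11.54, 11.86 and 9.87, and its further probe set, with an SD of 1.09, split the lines alike. AGH-OG-2 and AGH-OG-4 were the low lines. The lysosomal mannosidase gene Manba gave 10.002, 11.82, 11.47, 9.36 and 9.82, high in AGH-OG-2 and AGH-EG-1.

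The X chromosome stood out from the autosomes in AGH-OG-2. The value of a chromosome in a line is the median over its genes of the centred log2 signal minus that of the other autosomal genes. For the 386 X-linked members it was -0.013, -0.24, 0.076, 0.13 and 0.0083, and for the 19 autosomes it lay between -0.035 and 0.032 in every line. In AGH-OG-2, 329 of the 386 X-linked genes (85.2%) lay below their own mean over the 5 lines, against 50.8% of autosomal genes. In AGH-OG-3 33.7% did, against 49.2%. The value of AGH-OG-3 was 0.072 when AGH-OG-2 was left out. The median SD of an X-linked gene was 0.29. The list values of the X-linked Rhox and cancer-testis genes ranked the lines in the same order as the X chromosome values. Eda2r, also X-linked, had its low value in AGH-OG-3 instead.

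**Figure D4:**
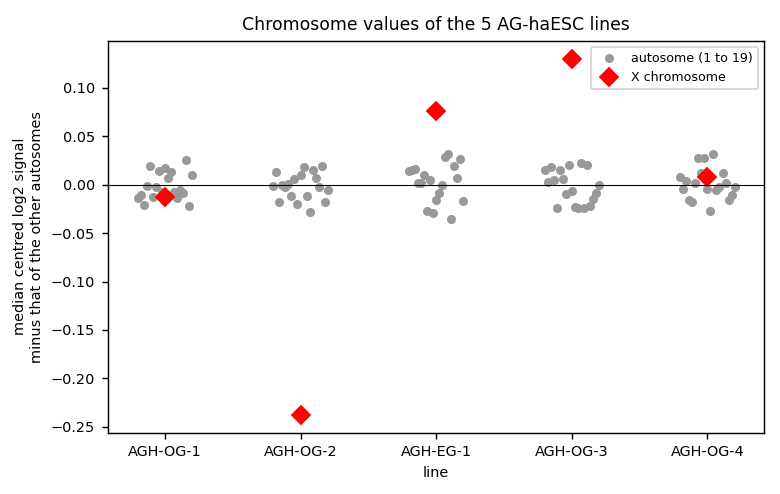
Chromosome values in each AG-haESC line, the median centred log2 signal of a chromosome's genes minus that of the other autosomal genes, with autosomes as grey points and the X chromosome as a red diamond. The X chromosome lies at -0.24 in AGH-OG-2 and at 0.13 in AGH-OG-3, while all autosomes lie within 0.036 of 0.

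Both contrasts that the labels allow among the haploid lines were fitted with limma over all 10181 genes, with 3 residual degrees of freedom and two-sided p-values adjusted by Benjamini-Hochberg. AGH-EG-1 was set against the 4 AGH-OG lines, with the single line assumed to vary like the others. No gene was called at an adjusted p below 0.05 (0.0% in either direction), 442 had an unadjusted p below 0.05, and the smallest adjusted p was 0.945. Wdfy1 had the smallest p, with a difference of 2.47 ± 0.37 log2 units (SE). The transgene, the passage and the line cannot be told apart in this contrast.

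The slope of the signal on passage was called in 2 genes (0.0196%), both higher at higher passage, and in no gene in the other direction, while 1484 had an unadjusted p below 0.05. Pramel7 rose by 1.11 ± 0.09 log2 units per passage (SE, limma adjusted p = 0.0114), with 6.41 at passage 12, 8.40 to 8.52 at passage 14 and 9.67 to 9.81 at passage 15. Ifitm3, an interferon-induced membrane protein, rose by 0.61 ± 0.07 (limma adjusted p = 0.0438), with 12.49 at passage 12, 13.59 to 14.02 at passage 14 and 14.22 to 14.42 at passage 15. A further member probe set of Pramel7 had an SD of 0.55, against 1.37 for the brightest, and a correlation of 0.94 with it. The size of the Pramel7 slope is thus that of its brightest probe set. Passage 12 was AGH-OG-3 alone, so that its passage and the line cannot be told apart. No gene was called without AGH-OG-2, AGH-OG-3 or AGH-EG-1, 3 were called without AGH-OG-1 and 7 without AGH-OG-4. With the mean of a gene's probe sets, no gene was called.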

How the data were processed

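The arrays were Affymetrix GeneChip 430 2.0, of which 5 AG-haESC arrays were used throughout and 3 E14 and 2 MEF arrays for comparison. The deposited values are signal intensities on a linear scale, made by the authors with MAS5 per the submitters' processing notes, with a 2% trimmed mean of 500 on every array and array medians of 56.2 to 68.2. This scaling hides differences in total RNA per cell. The number of arrays limits the precision. Labels do not say whether the lines came from separate animals or cultures were run in parallel, so spreads and p-values cover only the spread between these samples.

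All values were used as log2 of the signal. Among 45101 probe sets, 64 controls were left out, and 932 with several symbols and 9160 with none listed were not used. Genes were named through the platform annotation, and chromosomes came from GRCm38.p6. Tests used limma 3.58.1 in R 4.3.3 and were checked on simulated data. The members and the 48 gene lists were chosen with earlier results of these data known. Genes are named that had the 25 largest or 15 smallest SDs, the largest or smallest SDs of a list, an SD of at least 1, the widest gap between lines or a call. Further members of a list are named for their known role, chosen after their values were seen. Alternatives changed the filter on low values, a pseudocount of 32, quantile normalization, the mean of a gene's probe sets, the prior variance, the samples in the fit and each array left out in turn. Leaving out genes at least 8-fold brighter in MEF, and recounting the list members called in a line under each alternative, were added after seeing the data.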

Additional observations from a re-analysis of the deposited data

Results flagged for a closer look

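A value stood apart when, over the 5 haploid lines, the gap between the highest or lowest line and its nearest neighbour, divided by the whole range, exceeded 0.71, the critical value of Dixon's test. About 1 in 20 groups does so by chance, and 608 of the 10181 genes (5.97%) did. The values tested here were list values, chromosome values and genes chosen for the text, many of them for a wide spread. Of these 193 values, 17 stood apart, and all 17 are given below. AGH-OG-3 stood apart at the low end for the p53 targets Eda2r (log2 signal 6.03), Ccng1 (9.96), Phlda3 (8.49), Psrc1 (9.65) and Trp53inp1 (11.37). It also did for Ak1 (8.60) and Pid1 (6.81), which were among the genes most like Eda2r. The signalling gene Stat2 (6.41) was flagged in the same way, although its SD over the lines was only 0.19. The p53 list and these genes were described with the order of lines known, so the number of them is no independent support.

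AGH-OG-3 stood apart at the high end for Brdt (8.49) and for the list value of the neural genes (0.21). AGH-EG-1 stood apart at the high end for Wdfy1 (9.73) and for the value of chromosome 18, at 0.026, within the range of the other autosomes. AGH-OG-4 was apart at the low end for Ccne1 (10.07) and Pou5f1 (13.35). The further probe set of Ccne1 had an SD of only 0.29, and Pou5f1 had a range of 0.28 log2 units. AGH-OG-1 was the outlying low line for Cul5 (8.08), whose probe sets disagreed. AGH-OG-2 was the outlying low line for Mageb16 (12.73) and the outlying high line for the list value of the ERK-induced genes (0.17). No line had a repeat array, and whether these values recur in the same line was not measured.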

How the results depend on the processing

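No paired analysis was possible because the AGH-EG and AGH-OG lines share fewer than 2 replicate numbers. Under the alternatives, 260 values kept their direction and moved by less than the spread between lines (counts, by under 1.5 times), 31 moved further and 1 reversed. Among the 260, the values that moved by over 1.5 times were p53 in AGH-OG-4 (0.37), interferon in AGH-EG-1 (0.32) and Rhox in AGH-OG-2 (-0.38) without AGH-OG-3, fibroblast in AGH-OG-1 (-0.35) without AGH-OG-2 or with the stricter filter, X in AGH-OG-3 (0.072) without AGH-OG-2 and trophectoderm in AGH-OG-4 (0.26) with no filter. The median SD of 0.24 became 0.39 with no filter on low values, 0.21 with a stricter filter at 4 times the array median, 0.23 with a pseudocount of 32 and 0.19 as a scaled median absolute deviation, and ranged from 0.21 (without AGH-OG-3) to 0.25 with each line left out. The count of genes with an SD of at least 1, 50, became 3525 with no filter and 17 with the stricter one, and 29 (without AGH-OG-3) to 88 (without AGH-OG-2) with each line left out. It was 87 without AGH-OG-1. The E14 median SD was 0.099 without E14 replicate 3 and 0.30 without replicate 1. Signals near the array median limit what the unfiltered values can show.

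The stricter filter left 8 hypoxia targets low in AGH-EG-1, 5 interferon genes low in AGH-OG-4, 8 fibroblast markers high in AGH-OG-2 and 4 trophectoderm genes high in AGH-OG-4, since it tests fewer genes. With no filter, 24 and 22 interferon genes were low in AGH-OG-3 and AGH-OG-4. Without genes at least 8-fold brighter in MEF, the fibroblast value was 0.0079 in AGH-OG-2, with 0 markers high there, and reversed to 0.052 in AGH-OG-1, since most markers are such genes. With a line left out, 8 (without AGH-OG-1 or AGH-OG-3) to 22 fibroblast markers were high in AGH-OG-2. The ribosomal value of AGH-OG-3 was 0.0048 after quantile normalization. Passage slopes gave 1 call with no trend of the prior, 1 with no filter, 0 with the stricter filter, 0 with the mean of probe sets, 0 with E14 and MEF in the fit, and 0 to 7 with each line left out; the cause was not tested.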

Other observations

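Of the 50 genes with an SD of at least 1 over the haploid lines, 28 belonged to none of the 48 lists, and several of them were low in AGH-OG-3 alone, as the p53 targets were. Cryab, a small heat shock protein that keeps other proteins from aggregating, had log2 signals of 9.60, 10.17, 9.41, 7.18 and 10.99. Wdr35, a component of ciliary transport, gave 10.23, 9.88, 9.21, 7.47 and 10.39. AGH-OG-3 was the lowest line for both and AGH-OG-4 the highest. The annexin gene Anxa8 read 8.74, 7.96, 7.41, 6.12 and 9.17, and the stress kinase gene Map3k20 10.32, 9.97, 9.54, 7.92 and 10.77, with the same lines at both ends. Tek, the angiopoietin receptor and the only endothelial marker with an SD of at least 1, gave 8.68, 8.11, 7.54, 6.08 and 8.30. Pecam1 lay above the array median in every haploid line, at 8.61 to 9.08, while Cdh5, Kdr and Tie1 lay below it in every one.

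Other genes were high in AGH-OG-3. The unnamed transcript 1700018B24Rik gave 10.24, 9.56, 10.67, 12.77 and 11.14, and the X-linked Ammecr1 6.59, 8.07, 8.25, 9.69 and 7.95. Map1b, a microtubule-associated protein of neurons, was low in AGH-OG-1, at 6.72 against 8.31 to 9.49 in the other lines, but its further member probe set had an SD of 0.36. Aire, a regulator of gene expression in the thymus, was low in AGH-EG-1 at 6.72 against 8.40 to 9.58, the order of the hypoxia targets, with a correlation to Ndrg1 of 0.97 over the 5 lines. Dppa2, a germline-associated chromatin factor, gave 13.02, 13.51, 13.56, 12.11 and 12.79, and the nuclear receptor gene Nr0b1 12.17, 11.88, 11.98, 11.02 and 10.79. AGH-OG-3 was the lowest line for the former and AGH-OG-4 for the latter.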
